A study of Caenorhabditis elegans with 2 samples.

Results

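HMG-11 ChIP-seq signal was examined at 10 genes of the Wnt and beta-catenin pathway of Caenorhabditis elegans. They were the ligand gene egl-20, the receptor genes lin-17 and mom-5, the destruction complex genes pry-1 and apr-1, the beta-catenin genes bar-1, sys-1 and wrm-1, the kinase gene lit-1 and the transcription factor gene pop-1. The genes were picked by name, as 10 of the 19985 protein-coding genes of the annotation. For each gene, every listed region with its summit between 5 kb upstream of the gene start and the gene end was taken. This stretch is called the span of the gene below. The spans held 85 of the 30000 regions of the list made from both replicates together (the pooled list), and 79 and 85 of the 30000 regions of the lists for replicate 1 and replicate 2. A region was called a peak when it was in the authors' list thresholded by the irreproducible discovery rate (IDR), which holds 4037 of the pooled regions, 13.5% of them.

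Chromatin came from whole hermaphrodites of strain TH184, genotype unc-119(ed3) III; ddIs101, at the L3 larval stage, harvested 52 h after synchronisation as starved L1 larvae. The strain stably carried HMG-11 fused at its C-terminus to GFP and FLAG, and the chromatin was sheared by sonication. The description in the labels names an anti-GFP antibody for the precipitation, while their antibody field reads hmg-11, so whether untagged HMG-11 could add to the signal cannot be told from the labels. There was 1 group with 2 biological replicates, and both carried the transgene and the unc-119 allele, so no untagged animals stood beside them. The labels do not name the promoter that drives the fusion, whole animals mix all tissues, and no control library was analysed here. The 4037 peaks were the strongest pooled regions by the authors' signal value, from a highest value of 529 down to 67.9, against a median of 31.3 over the pooled list. The signal is each region's own value on a scale that is not given, so it ranks regions within a list only. The value at rank 4037 was 32.6 in replicate 1 and 40.6 in replicate 2, and regions of either replicate above that rank are called its strongest regions below. Read numbers cannot be had from these lists, so the depth is unknown. With 1 group there was no contrast to test, and all comparisons below are descriptions. The hmg-11 locus itself held no listed region in any list, and the unc-119 span held 11 pooled regions with 2 peaks.

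In Wnt signalling, a secreted ligand binds a Frizzled receptor, and a destruction complex of Axin and APC that otherwise degrades beta-catenin is held back, so that beta-catenin joins a TCF factor at target genes. C. elegans splits this work: BAR-1 acts in a canonical branch used in vulval patterning and in the migration of a neuroblast, while WRM-1 with the kinase LIT-1 drives POP-1 out of the nucleus and SYS-1 serves as its coactivator in asymmetric divisions such as those of the larval seam cells. HMG-11 belongs to the HMGA family of chromatin proteins, which hold DNA rich in A and T through short AT-hook motifs.

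The summit sequences of peaks at lit-1 and wrm-1 are given because they show the base composition that recurred at the peaks of these genes, with the strongest region of each gene outside the peak list for contrast. Each is the summit base with 50 bp on either side, read 5′ to 3′ on the + strand of the RefSeq genome sequence of assembly WBcel235 (ce11). Capitals mark runs of at least 6 A or T bases.
lit-1, 15708 bp inside, peak, rank 1056, chrIII:13717649-13717749: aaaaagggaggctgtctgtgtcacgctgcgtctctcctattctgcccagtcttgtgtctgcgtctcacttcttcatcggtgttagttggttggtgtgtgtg
lit-1, 11060 bp inside, peak, rank 1149, chrIII:13713001-13713101: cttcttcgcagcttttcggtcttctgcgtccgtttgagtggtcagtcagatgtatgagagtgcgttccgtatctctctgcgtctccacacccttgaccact
lit-1, 3985 bp upstream, peak, rank 1643, chrIII:13697956-13698056: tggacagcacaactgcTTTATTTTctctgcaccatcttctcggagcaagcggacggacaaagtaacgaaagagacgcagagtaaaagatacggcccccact
lit-1, 19356 bp inside, peak, rank 1891, chrIII:13721297-13721397: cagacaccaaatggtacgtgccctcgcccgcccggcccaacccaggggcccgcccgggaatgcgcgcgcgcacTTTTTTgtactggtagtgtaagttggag
wrm-1, 802 bp upstream, peak, rank 2385, chrIII:5721998-5722098: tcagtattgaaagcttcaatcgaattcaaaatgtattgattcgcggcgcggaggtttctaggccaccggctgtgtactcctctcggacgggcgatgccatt
lit-1, 425 bp upstream, peak, rank 3638, chrIII:13701516-13701616: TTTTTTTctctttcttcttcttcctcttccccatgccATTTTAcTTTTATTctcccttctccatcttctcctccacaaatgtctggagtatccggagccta
lit-1, 459 bp inside, not a peak, rank 4441, chrIII:13702400-13702500: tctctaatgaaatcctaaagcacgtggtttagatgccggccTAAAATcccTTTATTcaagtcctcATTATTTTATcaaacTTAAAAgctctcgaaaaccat
wrm-1, 589 bp upstream, not a peak, rank 5100, chrIII:5722211-5722311: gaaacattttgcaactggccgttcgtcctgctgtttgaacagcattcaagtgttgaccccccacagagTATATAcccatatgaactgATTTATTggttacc
The peaks 15708 and 11060 bp inside lit-1 and the peak in the wrm-1 promoter held no run in capitals, and the peak 19356 bp inside lit-1 was 35.6% A+T with 1 such run. The regions outside the peak list held 28 and 13 bases in capitals, against 0 to 20 in the 6 peaks shown. In the same windows, A+T content was 64.4% for the lit-1 region and 56.4% for the wrm-1 region outside the peak list, and 35.6% to 58.4% for the 6 peaks. The wrm-1 region thus lay within the range of the peaks in both measures. It also overlapped the wrm-1 peak, so it was not a site apart from that peak. Over the 71 other regions of all 10 spans, A+T ran from 36.6% to 83.2%, so some were as low as the peaks. The lit-1 peak 17551 bp inside the gene, at rank 3827, lay in an exon and is not shown.

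Of the 10 genes, 7 had at least 1 peak in the span, and these 7 held 14 peaks. The genes with peaks were pry-1, lit-1, sys-1, lin-17, wrm-1, apr-1 and pop-1. Regions without a peak were listed at mom-5 and bar-1, and egl-20 had no listed region. Over all protein-coding genes, 28.0% had a peak in a span drawn the same way. Many genes had nothing listed, and among the 10448 coding genes with any listed region in the span, 53.5% had a peak, beside 7 of 9 here. Span length moved with this share, and among the 5841 coding genes with spans as long as those of the 10 genes, 40.2% had a peak. The 10 spans ran from 8.18 kb at egl-20 to 27.41 kb at lit-1. All 5 genes with spans over 10 kb had a peak. The share of all coding genes with a peak was 39.1% for spans of 10 to 12 kb and 49.0% for 12 to 15 kb. It was 48.0% for 15 to 20 kb and 56.2% for 20 to 30 kb. Of the 5 genes with spans of 8 to 10 kb, sys-1 and wrm-1 had a peak and mom-5, bar-1 and egl-20 had none, where 33.7% of all coding genes of that length had one.

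**Figure D1:**
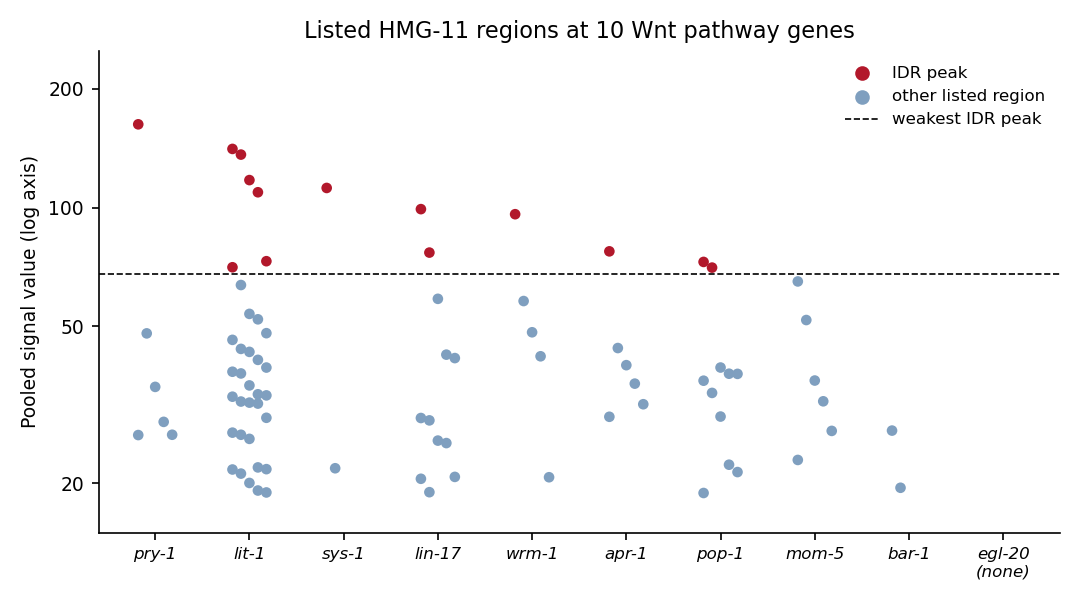
Pooled signal value (log axis) of every listed region in the span of each gene, with peaks in red, other regions in blue and the weakest peak of the whole list as a dashed line. The strongest region stood at pry-1 (163), lit-1 had 6 points above the line, mom-5 came closest below it (65.0), and egl-20 had no point.

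**Figure D2:**
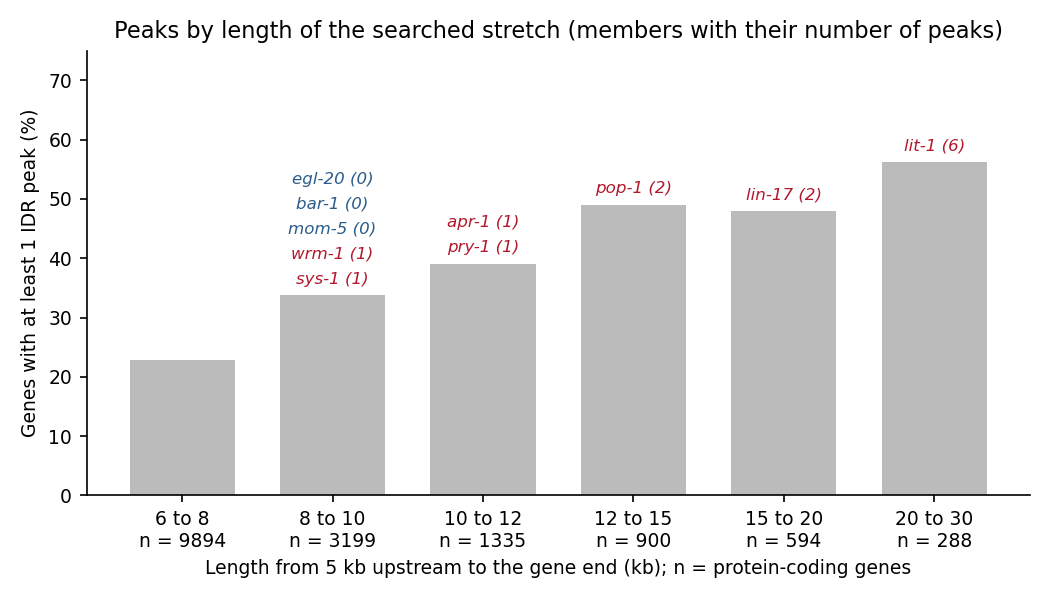
Share of protein-coding genes with at least 1 peak (%, bars from 0) by the length of the span in kb, with the 10 genes written above the bar of their length and their number of peaks in brackets. The bars rose from 22.8% for spans of 6 to 8 kb to 56.2% for spans of 20 to 30 kb, and the 3 genes without a peak all fell in the bar for 8 to 10 kb.

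A promoter window was drawn from 1000 bp upstream to 200 bp downstream of each annotated transcript start. By this measure 4 of the 10 genes, namely sys-1, wrm-1, lit-1 and pop-1, had a peak in a window of their own. Over all coding genes the share was 14.9%, and it was 43.5% of the 6861 coding genes with any listed region in a window. The like set for the last share leaves out mom-5, bar-1 and egl-20, which had no region in a window of their own. The genes pry-1, lin-17 and apr-1 had a region there but no peak. Of the 14 peaks, 7 lay in a window of their own gene, 4 of these at lit-1 with its 7 annotated starts. None lay only in the window of another coding gene. By place, 9 peaks lay upstream of the gene start, 4 in introns and 1 in an exon outside the coding sequence. No peak summit lay in coding sequence, where 5 of the 71 other regions had theirs. The nearest coding transcript start belonged to the gene itself for 12 of the 14 peaks, with lin-17 and apr-1 each having 1 peak nearer to another gene.

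Among the ligands, egl-20 encodes a Wnt made in the posterior of the animal. It lies on chromosome IV (9812357 to 9815532, minus strand). Its span of 8.18 kb held no region in the pooled list or in either replicate. An empty span is common at this length: 47.1% of the 9795 coding genes with spans of 6.54 to 10.2 kb had no pooled region either. The lists end at pooled signal 18.9, so weaker signal at egl-20 was not seen.

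The receptor gene lin-17 encodes a Frizzled protein needed for the polarity of several asymmetric divisions. It lies on chromosome I (2706883 to 2717549, plus strand) and has 5 annotated starts. Its span held 12 pooled regions and 2 peaks. The stronger peak (2703125 to 2703580) lay 3530 bp upstream of the gene start, and its signal was 99.2 in the pooled list at rank 2266, 46.9 in replicate 1 at rank 2071, and 52.2 in replicate 2 at rank 2815. Both replicates thus placed it among their strongest regions. The nearest coding start to it was that of F32B5.1, 2933 bp away. The other peak (2708249 to 2708704) lay in an intron 1594 bp inside the gene and 878 bp past the nearest lin-17 start, with pooled signal 77.0 at rank 3390. Here the replicates parted: the signal was 56.3 in replicate 2 at rank 2487, the strongest lin-17 region of that list, and 15.2 in replicate 1 at rank 16173. The same split was seen at the next region, 476 bp inside the gene, with ranks of 16021 in replicate 1 and 3893 in replicate 2 and a pooled rank of 4983. The lin-17 promoter windows held 3 regions and no peak.

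The second Frizzled gene, mom-5, lies on chromosome I (9965574 to 9970037, plus strand) and had 6 pooled regions and no peak. Its strongest region (9961899 to 9962354) fell just short of the peak list, at rank 4302 with signal 65.0, and ranked 5849 in replicate 1 and 4355 in replicate 2. That region lay 3447 bp upstream, in the promoter window of algn-10, so it sat nearer to another gene than to mom-5. The next, at rank 6119 with signal 51.9, lay 3945 bp inside mom-5 in an exon outside the coding sequence, and the nearest coding start was that of tsp-7. No region lay in a promoter window of mom-5.

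In the destruction complex, pry-1 encodes the Axin protein that scaffolds the breakdown of BAR-1. It lies on chromosome I (14172828 to 14179360, minus strand). It had the strongest peak of the 10 genes (14181140 to 14181595), 2008 bp upstream of its only annotated start. The signal was 163 in the pooled list at rank 712, 75.5 in replicate 1 at rank 591, and 92.6 in replicate 2 at rank 819. The peak was high in all 3 lists, and pry-1 was the nearest coding gene start. Its own promoter window held 2 weaker regions, the higher of them 413 bp upstream with signal 48.0 at rank 7004. The other complex gene, apr-1, encodes a protein related to APC and lies on chromosome I (8050037 to 8055475, plus strand). Its peak (8046351 to 8046806) lay 3458 bp upstream and 1658 bp from the start of K04G2.7, which was nearer. The pooled signal was 77.5 at rank 3357, with 38.9 at rank 2899 in replicate 1 and 35.1 at rank 5041 in replicate 2. Of the replicates, only replicate 1 had it among its strongest regions.

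The 3 beta-catenin genes differed. The gene bar-1, whose product is the beta-catenin of the canonical branch, lies on X (7166005 to 7170625, minus strand) and had no peak. Both of its pooled regions were below the median signal of the list, at ranks 18659 (7174311 to 7174766, signal 27.2) and 29000 (7173311 to 7173766, signal 19.5), and lay 3914 and 2914 bp upstream. Replicate 1 listed nothing there, and the stronger region ranked 20811 in replicate 2 with signal 15.1. The nearest coding start to that region was that of F43E12.1.

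The gene sys-1, which encodes the divergent beta-catenin that acts as coactivator of POP-1, lies on chromosome I (9980063 to 9984794, minus strand). It had 1 peak (9984848 to 9985303), 282 bp upstream of its first start, and 1 weak region overlapping it at rank 25341. The peak signal was 112 in the pooled list at rank 1805, 36.1 in replicate 1 at rank 3290, and 77.1 in replicate 2 at rank 1321. All 3 lists held the promoter peak among their strongest regions, and nothing was listed inside the gene in the pooled list. The gene wrm-1 encodes the beta-catenin that binds and activates LIT-1 and lies on chromosome III (5722850 to 5727115, plus strand). Its peak (5721820 to 5722275) lay 802 bp upstream, with signal 96.3 in the pooled list at rank 2385, 36.5 in replicate 1 at rank 3219, and 67.9 in replicate 2 at rank 1738. A region overlapping this peak (5722033 to 5722488), with its summit 589 bp upstream, ranked 5100 with signal 58.0. The wrm-1 peak thus stood in a promoter and was among the strongest regions of each replicate, as was the sys-1 peak. In replicate 1 both were in the weaker part of that set, with signals of 36.5 at wrm-1 and 36.1 at sys-1. The strongest regions of replicate 1 ended at a signal of 32.6.

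The kinase gene lit-1 encodes a Nemo-like kinase and lies on chromosome III (13701991 to 13724404, plus strand) with 7 annotated starts. It held 35 of the 85 pooled regions (41.2%), 30 of them inside the gene, and 6 of the 14 peaks (42.9%). Its span was also the longest. The 288 coding genes with spans of 20 to 30 kb had a median of 11 regions and a mean of 1.07 peaks. At least 6 peaks in the span were found at 13 of all 19985 coding genes, or 0.065%. Among the 238 coding genes with spans of 21.9 to 34.3 kb, 7 had at least 6 (2.94%). Without lit-1, the other 9 genes held 50 regions and 8 peaks.

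The 6 lit-1 peaks were spread over the gene, 2 upstream and 4 inside. The strongest (13717471 to 13717926) lay in an intron 15708 bp past the gene start and 266 bp upstream of an internal start, with signal 141 in the pooled list at rank 1056, 66.5 in replicate 1 at rank 879, and 73.5 in replicate 2 at rank 1477. The next (13712823 to 13713278) lay in an intron at 11060 bp, 994 bp upstream of another internal start, with pooled signal 136 at rank 1149 and ranks of 1902 and 1068 in replicates 1 and 2. Both were thus within the promoter windows of internal lit-1 starts and were high in every list. A distal upstream peak (13697778 to 13698233), 3985 bp before the gene start, had pooled signal 118 at rank 1643 and ranked 1505 and 2116 in the replicates. An intronic peak (13721119 to 13721574) at 19356 bp had pooled signal 109 at rank 1891 and ranked 1176 and 3264. Both replicates had these 4 among their strongest regions. The remaining 2 were weaker. The peak at the first promoter (13701338 to 13701793), 425 bp upstream, had pooled signal 73.2 at rank 3638 and ranked 6938 in replicate 1 and 3249 in replicate 2. The peak in an exon outside the coding sequence (13719314 to 13719769), 146 bp past an internal start, had pooled signal 70.7 at rank 3827 and ranked 5242 and 3199. Each was among the strongest regions of replicate 2 only. The strongest lit-1 region outside the peak list lay 459 bp inside the gene, at rank 4441 with signal 63.7.

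**Figure D3:**
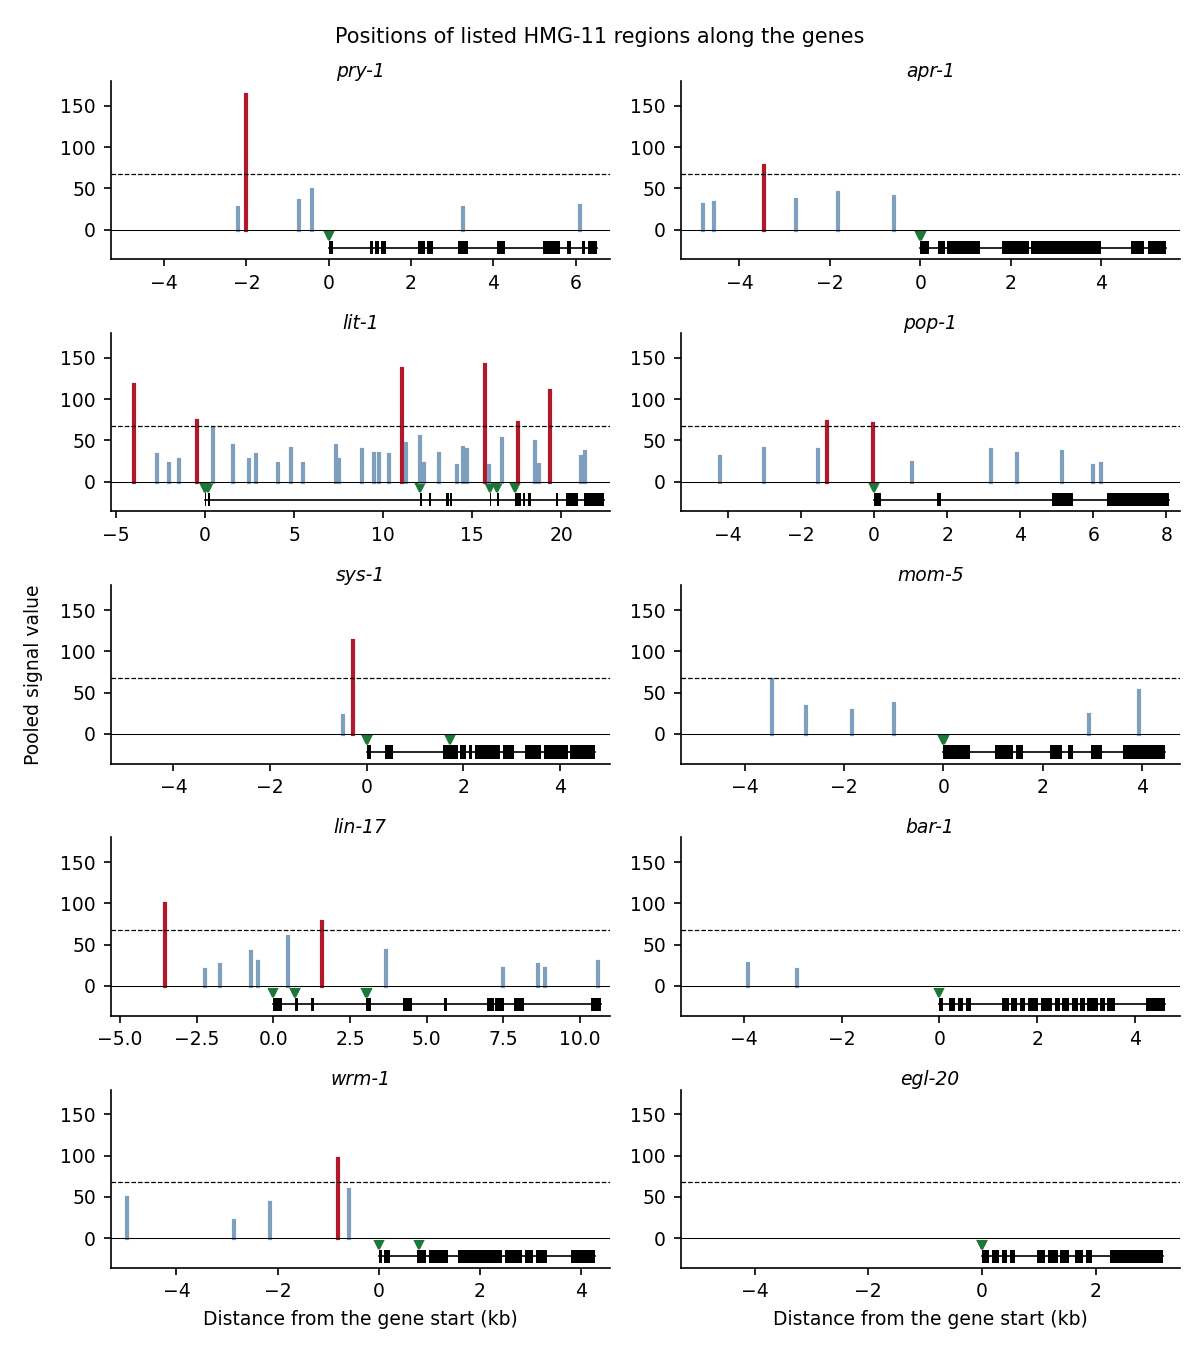
Each panel shows 1 gene from 5 kb upstream to the gene end, in kb from the gene start and in the direction of transcription, with exons as black boxes and transcript starts as green triangles. Bars give the pooled signal value of listed regions at their summits (red for peaks, blue for others), and the dashed line is the weakest peak of the list (67.9). Peaks stood just before the first start at sys-1, wrm-1 and lit-1 and at the start of pop-1, and 4 of the 6 lit-1 peaks stood within the gene.

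The transcription factor gene pop-1 encodes the TCF protein on which these branches act. It lies on chromosome I (2822243 to 2830311, minus strand) and had 11 pooled regions and 2 peaks, both low in the peak list. The first (2831367 to 2831822) lay 1284 bp upstream, with signal 72.9 in the pooled list at rank 3655, 27.9 in replicate 1 at rank 5335, and 50.4 in replicate 2 at rank 2954. The second (2830109 to 2830564) lay 26 bp upstream of the only annotated start, with signal 70.5 in the pooled list at rank 3833, 28.3 in replicate 1 at rank 5182, and 39.9 in replicate 2 at rank 4128. Replicate 1 placed neither among its strongest regions, and the peak at the pop-1 start was the only one of the 14 that was among the strongest of neither replicate. Near the threshold, the weakest peaks inside it were these 2 and the lit-1 peak at rank 3827, and the nearest regions outside it were those of mom-5, lit-1 and lin-17 at ranks 4302, 4441 and 4983.

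All 14 peaks overlapped a listed region in both replicates, with summits at most 95 bp apart. The IDR list itself rests on agreement between the replicates, so this overlap was no separate check of the peaks. Of the 14, 8 overlapped the strongest regions of both replicates, 5 those of 1 replicate and 1 those of neither. Over all 4037 peaks the share in both was 76.5%. Of the 71 other regions in the spans, 54 overlapped a listed region in both replicates, and none was among the strongest of both. Some of the 71 overlapped a peak and could be matched to the same replicate region. At sys-1, the peak and the region at rank 25341 both matched the replicate 1 region at rank 3290. The 54 may thus be too high, and the share over all other listed regions was not counted. The order of the genes by their strongest region held only in part. In the pooled list it ran pry-1, lit-1, sys-1, lin-17, wrm-1, apr-1, pop-1, mom-5 and bar-1. Of the 8 neighbouring pairs in that order, 4 kept their order in both replicates: pry-1 over lit-1, lit-1 over sys-1, pop-1 over mom-5, and mom-5 over bar-1. The other 4 pairs, among the genes from sys-1 to pop-1, were reversed in 1 replicate. Beyond neighbours, apr-1 stood above mom-5 in replicate 1 (ranks 2899 and 5849) and below it in replicate 2 (ranks 5041 and 4355). The order of the genes from sys-1 to mom-5 was thus not settled by these data.

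**Figure D4:**
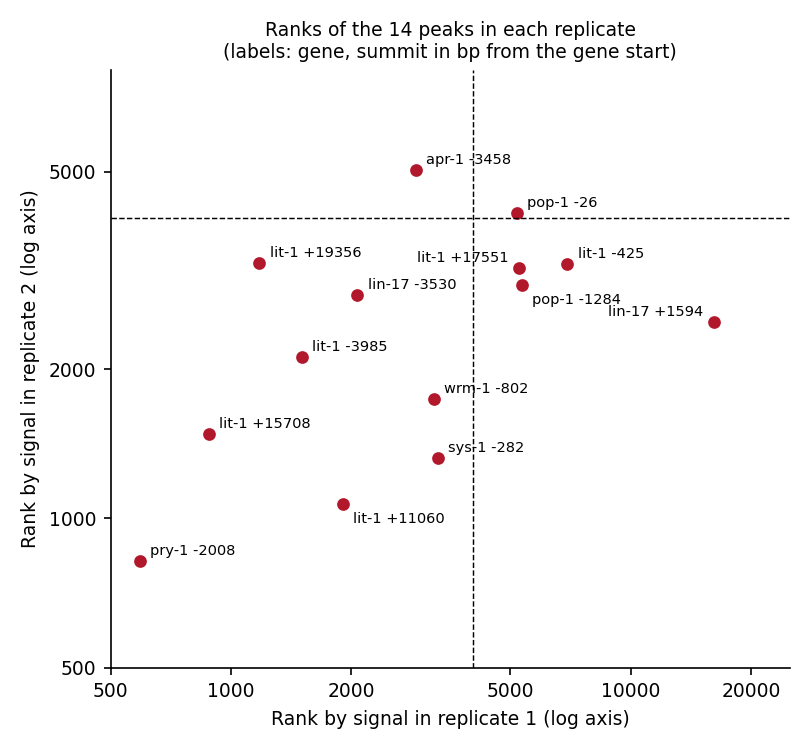
Rank by signal of each of the 14 peaks in replicate 1 (x) and replicate 2 (y), both on log axes with the strongest towards the lower left, labelled by gene and by the summit's distance in bp from the gene start. Dashed lines mark rank 4037, and 8 points lie within both lines, while the lin-17 intronic peak lies far to the right (16173 in replicate 1, 2487 in replicate 2).

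The peaks at these genes were less A/T-rich than the other regions of the same spans. In the 101-bp window at the summit, the median A+T content was 49.0% over the 14 peaks, with quartiles of 47.5% and 51.2%. It was 61.4% over the 71 other regions of the spans, with quartiles of 55.9% and 67.8%, and the ranges of both sets overlapped. The same held for the whole list, at 52.5% over all 4037 peaks and 63.4% over the 25963 other regions. The lowest member peak was the lit-1 intronic peak (35.6%) and the highest the peak at the pop-1 start (67.3%). The longest run of A or T had a median of 6 bp in the peaks and 9 bp in the other regions of the spans. Mean A+T in 25-bp windows was 48.3% at the summits of the 14 peaks and 65.1% at 300 bp to their left. At that distance the sets lay close together, with 64.9% for all peaks and 65.3% for all other regions.

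**Figure D5:**
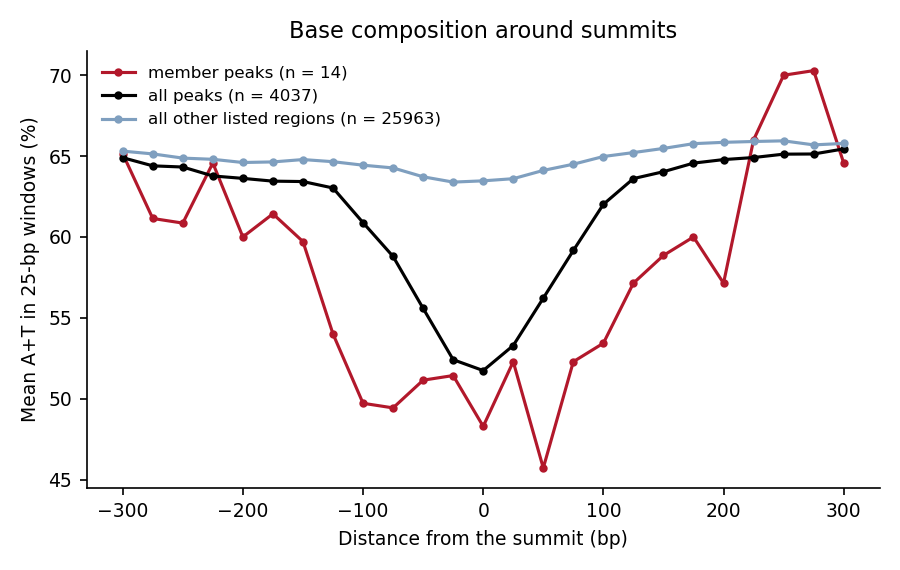
Mean A+T content (%) in 25-bp windows by distance from the summit in bp, for the 14 peaks at the Wnt genes, all 4037 peaks and the 25963 other listed regions. At the summit the 14 peaks had 48.3%, all peaks 51.7% and the other regions 63.5%, and the lowest mean of the 14 peaks was 45.7%, 50 bp to the right of the summit.

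Short sequences were counted on both strands in the same windows. AATT, a short A/T core, was present in 4 of the 14 peaks (28.6%), in 44.2% of all peaks and in 73.5% of other listed regions. The longer AAATTT, which contains AATT, was present in 1 peak, at the pop-1 start, beside 8.97% of all peaks and 27.7% of others. AATATT was in none of the 14, beside 4.86% and 10.7%. AAAAAA was present in 4 peaks (28.6%), beside 27.1% of all peaks and 48.4% of others. GAGAGA was present in 4 peaks, those of sys-1, the pop-1 peak 1284 bp upstream and the 2 strongest of lit-1, beside 31.6% of all peaks and 9.15% of others. CTTTGA, the core of the TCF site, was in none of the 14 peaks, beside 3.99% of all peaks and 6.54% of others. These are letter matches in windows of 101 bp and say nothing of which factor is bound.

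Further genes of the pathway were taken from a list of 25, of which 11 had a peak in the span and 7 in a promoter window of their own. The share in the span was 11 of 25, beside the 28.0% of all coding genes. Some spans in this list, such as 7.44 kb at cwn-2 and 7.94 kb at dsh-2, were shorter than those of the 10 genes. Of all coding genes with spans of 6 to 8 kb, 22.8% had a peak. Other spans in the list were long, such as 15.98 kb at dsh-1 and 19.39 kb at cam-1, and for spans of 15 to 20 kb the share was 48.0%. A listed region was present in 20 of the 25 spans. The share among these was 11 of 20, beside 53.5% of all coding genes with any listed region in the span. All 3 Dishevelled genes, whose products relay the signal from Frizzled, had a peak in their own promoter window. The strongest of these was at mig-5, 147 bp upstream in a window shared with cct-1, at rank 145 with signal 243. At dsh-2 (rank 2357) and dsh-1 (rank 3031) the summits lay 283 and 160 bp upstream. The dsh-2 span held no region among the strongest of replicate 1, where its best ranked 7100. Of the other destruction complex genes, gsk-3 had 3 peaks, the strongest 3199 bp upstream in the window of Y18D10A.4 at rank 160. The gene kin-19, encoding a casein kinase, had 2, the strongest 1191 bp upstream at rank 1567. The gsk-3 span held 4 of the strongest regions of replicate 1 and 1 of replicate 2. For kin-19 these counts were 1 and 2. The Porcupine gene mom-1, needed for ligand secretion, had the strongest peak of the list, in an intron 3415 bp inside the gene, at rank 67 with signal 278.

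Both genes of the kinase branch upstream of LIT-1 had a promoter peak, mom-4 at rank 2988 in a window shared with lsl-1, and tap-1 at rank 1994 in a window shared with C44H4.4. The mom-4 span held no region among the strongest of replicate 1, where its best ranked 5168. The adhesion beta-catenin gene hmp-2 had a peak 1398 bp upstream, in the window of K05C4.7, at rank 277, the planar polarity gene vang-1 one 339 bp upstream at rank 1910, and the ligand gene cwn-2 one 4868 bp upstream, in the window of ipla-7, at rank 1088. Thus several of these peaks sat at the start of a neighbour. None of the 4 other receptor genes and neither antagonist gene had a peak, and 1 of the 4 other ligand genes did. The genes lin-44, mom-2, axl-1, sfrp-1 and fmi-1 had no pooled region in the span, and 9 genes had regions but no peak. Of those 5, mom-2 and axl-1 were empty in both replicate lists too, while lin-44 (rank 4595) and fmi-1 (rank 8279) had a region in replicate 1 and sfrp-1 (rank 28308) in replicate 2. Of 7 reported targets of POP-1 and beta-catenin, 1 had a peak: end-3, an endoderm GATA factor gene, at rank 1086 and 2438 bp upstream, in the windows of aip-1 and ddx-17. None of the 7 had a peak in a window of its own. Over all coding genes, 28.0% had a peak in the span and 14.9% in a window of their own. With 7 genes, these counts do not show fewer peaks than at coding genes in general.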

How the data were processed

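HMG-11 was mapped by ChIP-seq in 2 biological replicates of 1 group, grouped and numbered by their labels. The authors deposited peak lists on ce11 for each replicate and for both together, and an IDR list. The deposited signal value and −log10 q-value per region come from the authors' caller, run against a control per the deposited notes. Aligner and caller were not given in the sources used here. As the q-value was capped at its highest for 3637 pooled regions, regions were ranked by signal. The 4 ce10 lists were not used.

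Summits were placed on Ensembl release 115 genes (WBcel235). Overlap with a replicate region needed 1 bp. Python 3.11.15, pandas 2.3.3, numpy 2.4.6 and matplotlib 3.10.9 were used, and the summit placement was tested on simulated data. Members and gene lists were chosen with earlier results of these data known. Named were all 10 genes with every peak or the strongest region, the other pathway genes with a peak or no region, and genes nearest to a peak or holding it in a window. Regions outside this rule were chosen after their values were seen. Alternatives were the 2018 strongest peaks, each replicate alone, other spans, windows and overlaps, and the nearest start.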

Additional observations from a re-analysis of the deposited data

How the results depend on the processing

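With the 2018 strongest peaks in place of all peaks, 3 of the 10 genes had a peak in the span (pry-1, lit-1 and sys-1), 2 had one in their own promoter window, 6 peaks remained in the spans, 3 were also among as many strongest regions of both replicates, 17.1% of all coding genes had a peak, and the median A+T of the peaks was 48.0%. When a peak was given to the nearest coding start only, 6 of the 10 genes had one in the span, apr-1 being lost, and 12 peaks remained. In that setting 8 of the 25 other pathway genes and 14.9% of all coding genes had one. The median A+T was 48.0% with 25 bp and 51.0% with 100 bp on either side of the summit. With 1 replicate list in place of the pooled list, 6 of the 10 genes had a peak in either list (replicate 1 lost pop-1 and replicate 2 lost apr-1), 3 to 4 had a promoter peak, the spans held 11 to 13 peaks and 79 to 85 regions, 9 to 13 of the other pathway genes and 27.3% to 27.9% of all coding genes had a peak, and the median A+T was 49.5% to 50.5%. With 2 kb upstream, 5 genes had a peak, pry-1 and apr-1 being lost, beside 20.4% of all coding genes. The promoter count of 4 genes moved with the window. It was 3 with 500 bp on either side of a start, wrm-1 being lost. With 2000 bp upstream to 200 bp downstream it was 5, lin-17 being gained. No paired analysis was possible because there was 1 group. The depth is unknown, and regions below rank 30000 were not seen.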
